A study of Mus musculus with 18 samples.

Results

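The 10 circadian clock genes Arntl, Clock, Npas2, Per1, Per2, Per3, Cry1, Nr1d1, Dbp and Ciart were followed in the lacrimal gland (LG) of male mice. They were taken by gene symbol from the deposited count table, as 10 of its 54232 genes. All 10 had counts in every mouse and passed the filter on low counts in every comparison. RNA sequencing was performed on LGs of 18 mice in 6 groups of 3, each sample being 1 gland of 1 animal. NOD.B10Sn-H2b/J mice (NOD.H-2b), a strain with spontaneous Sjogren-like inflammation of the exocrine glands, were compared with BALB/cJ mice (BALB/c) at 2, 4 and 6 months (2M, 4M, 6M). All were males, and the labels name no transgene and no treatment. BALB/c does not share the genetic background of NOD.H-2b and was chosen by the study for its body weight and gland size, so a difference here is one between 2 inbred strains. The animals had free access to food, and light and darkness alternated every 12 hours. The hour of day at which glands were taken is not given in the sources used here, and for genes that cycle over the day it cannot be told apart from strain, age or mouse.

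In the mammalian clock, the proteins of Arntl (BMAL1) and Clock, or the Clock paralog Npas2, form a pair that binds E-box sequences and activates the Per and Cry genes, Nr1d1, Dbp and Ciart. PER and CRY proteins then repress that pair, NR1D1 (REV-ERB alpha) represses Arntl through ROR elements, and DBP acts on D-box sequences in genes such as the Per genes. In most peripheral organs, Arntl and Npas2 peak at roughly the opposite time of day to Nr1d1, Dbp and the Per genes, and inflammation, glucocorticoids and feeding can shift the level or the timing of these transcripts.

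Promoter sequences are shown first because the clock proteins act through short motifs in them. RefSeq promoters on GRCm38.p6 (250 bases before to 50 after each transcription start) were at hand for 9 of the 10 genes. The window was searched on both strands for 4 motifs, the E-box CACGTG, the D-box TTANGTAA, the ROR element TAGGTCA and the cAMP response element TGACGTCA. No promoter of these genes held more than 1 kind of motif, so no matches of different motifs overlapped. The E-box occurred in 3 of the 9 genes, against 8.09% of the 27025 genes in the table (7.15% of its 32851 promoters, as a gene can have several). Ciart had 3 E-boxes at -116, -58 and -44 from its start. The D-box (2.72% of genes, 2.32% of promoters) occurred in Per3 only, 2 times, at -205 and -158. The ROR element (2.97% and 2.61%) occurred in Arntl only, 31 bases after the second of its annotated starts, and the cAMP response element (2.03% and 1.79%) in none of the 9. A match is a run of letters and not a bound site. The 4 promoters below are read 5' to 3' on the strand of the gene, with the motif in capitals, and are given because Ciart and Per3 are among the genes that differed between the strains and Cry1 and Per1 carry the remaining E-boxes. A 30-base stretch around the Arntl ROR element follows, since Arntl showed the largest strain difference at 2M.
Ciart, chr3:95882229-95882478, minus strand, 3 E-boxes: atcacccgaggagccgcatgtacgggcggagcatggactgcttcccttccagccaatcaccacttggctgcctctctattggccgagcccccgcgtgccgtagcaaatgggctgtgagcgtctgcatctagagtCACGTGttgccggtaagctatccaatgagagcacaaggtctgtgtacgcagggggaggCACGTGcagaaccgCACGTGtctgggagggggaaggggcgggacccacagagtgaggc
Per3, chr4:151044666-151044915, minus strand, 2 D-boxes: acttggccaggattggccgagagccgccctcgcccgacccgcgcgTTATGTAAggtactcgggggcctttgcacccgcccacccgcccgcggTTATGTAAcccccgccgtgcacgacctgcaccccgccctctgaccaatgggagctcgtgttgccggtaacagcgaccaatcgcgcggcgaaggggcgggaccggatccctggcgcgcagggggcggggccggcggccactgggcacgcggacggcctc
Cry1, chr10:85185055-85185304, minus strand, 1 E-box: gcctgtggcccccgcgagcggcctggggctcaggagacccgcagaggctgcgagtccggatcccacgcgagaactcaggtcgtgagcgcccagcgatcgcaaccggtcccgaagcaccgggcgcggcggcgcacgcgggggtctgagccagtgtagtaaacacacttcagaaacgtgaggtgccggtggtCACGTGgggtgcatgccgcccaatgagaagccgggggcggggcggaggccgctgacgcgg
Per1, chr11:69098699-69098948, plus strand, 1 E-box: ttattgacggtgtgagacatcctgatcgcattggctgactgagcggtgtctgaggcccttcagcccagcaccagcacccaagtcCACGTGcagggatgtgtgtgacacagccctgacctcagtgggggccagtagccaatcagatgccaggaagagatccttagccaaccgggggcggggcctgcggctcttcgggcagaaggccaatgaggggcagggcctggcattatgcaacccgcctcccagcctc
Arntl, chr7:113207530-113207559, plus strand, 1 ROR element: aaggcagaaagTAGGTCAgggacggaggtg

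The libraries held 49480781 to 103936830 counts per mouse, the deepest being BALB/c 6M replicate 1. The mean leading distance of a mouse to its group mates ran from 1.87 to 2.47 on the log2 scale, highest in NOD.H-2b 2M replicate 1 and next in BALB/c 6M replicate 3 (2.34). The latter stood apart in heat shock genes: its Hspa1b was 56.3 CPM (counts scaled by library size) against 2.91 and 4.6 in its group mates, its Hspa8 356 against 107 and 85.8, and its Hsph1 141 against 28.5 and 28.1. It had the highest value of the 18 mice in all 5 heat shock genes examined, and 12.1 CPM of the cold-inducible gene Cirbp against 31.1 and 34. The part of this in its clock gene values was not tested, and counts of calls without this mouse are given beside the 6M results. All 12 lacrimal epithelial markers were counted in every mouse. Of 6 salivary markers, Smr3a had no count in any mouse, which allows up to 3 counts per library, Muc19, Bpifa2 and Dcpp1 had at most 1, 3 and 9 counts, and Prol1 and Amy1 had 98 to 1045 and 13 to 107. Immune markers moved with strain and age. Summed B cell markers (7 genes) stood at 0.123 to 2.46 CPM in BALB/c, 1.57 to 25.3 in NOD.H-2b at 2M, 133 to 286 at 4M and 193 to 389 at 6M, and Ms4a1 and Pax5 were at 0 in some mice. Summed T cell markers (8 genes) ranged from 0.406 to 5.98 CPM in BALB/c and from 9.28 to 126 in NOD.H-2b, and summed macrophage markers (8 genes) from 46.3 to 108 and from 157 to 264. Plasma cell markers (6 genes) summed to 589 to 833 CPM in BALB/c and 580 to 1176 in NOD.H-2b, and the epithelial markers to 63712 to 84735 and 45334 to 67028. The epithelial sum rests mainly on Scgb2b7 (3084711 to 7030038 counts per mouse), as no other epithelial marker passed 70694. In the plasma cell list, Xbp1 (14854 to 33163), Derl3 (6047 to 17118) and Jchain (237 to 48770) carried most counts. Adipocyte, skeletal muscle and salivary markers (6 genes each) summed to at most 3.49, 1.54 and 13.2 CPM. Their part in the clock gene differences was not tested. In whole gland RNA, fewer cells of a type and less RNA per cell cannot be told apart.

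Levels of different genes are compared per length of exon. In BALB/c at 2M, Dbp (14.4 ± 5.96 CPM per kb, SD, n = 3), Nr1d1 (13.4 ± 3.4) and Clock (13.2 ± 0.859) were highest with overlapping ranges, and Arntl (0.163 ± 0.0511) and Npas2 (0.112 ± 0.0309) were lowest, again overlapping. Clock held the first place in 4 of the 6 groups, at 11.5 to 19 CPM per kb of group mean there. Npas2 or Ciart held the last. Arntl held the ninth place in BALB/c at 2M and the fifth in NOD.H-2b at 4M (2.93 CPM per kb), and Dbp the first and the eighth (1.25). None of the 60 places differed when DESeq2 size factors replaced TMM.

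**Figure D1:**
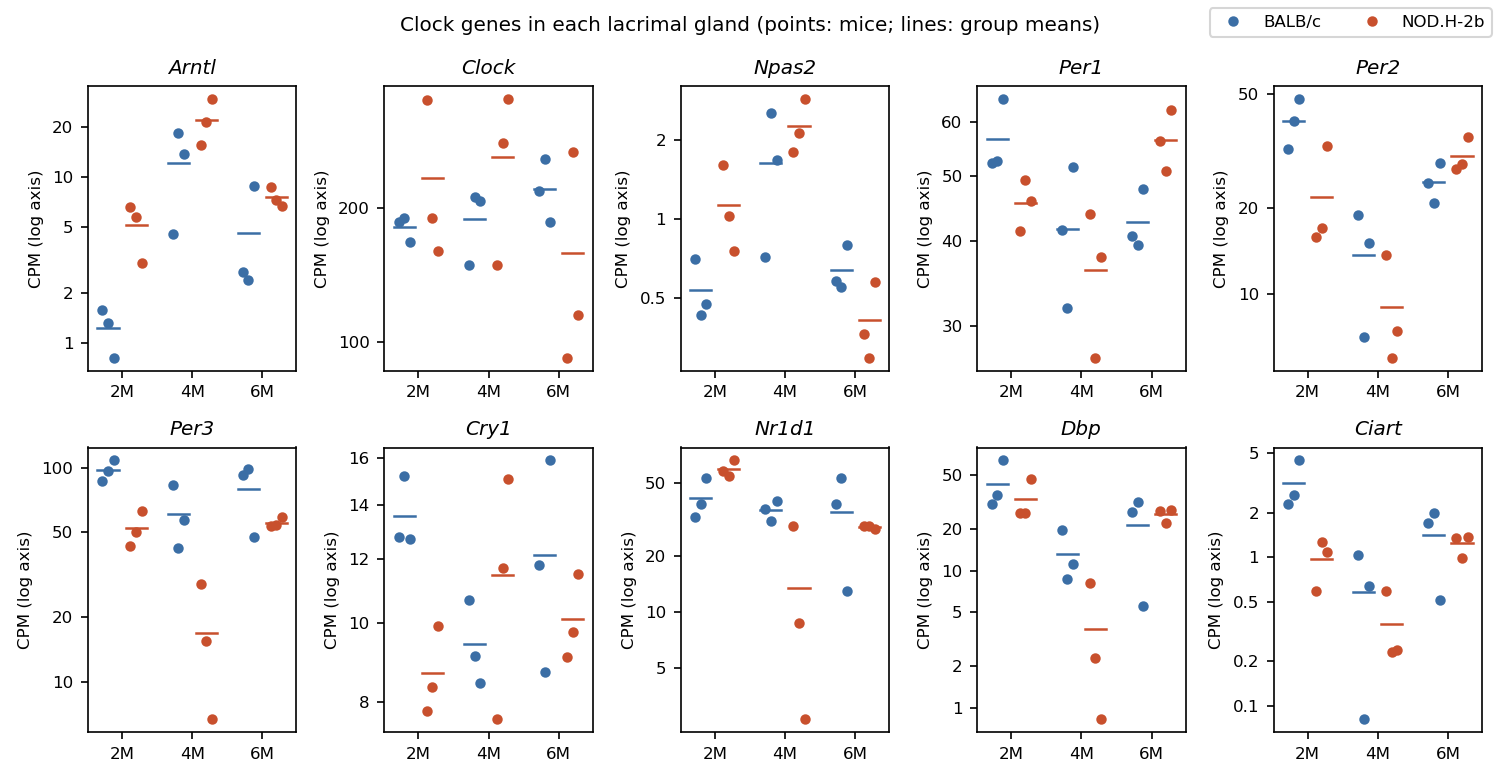
Level of each clock gene in each mouse, in CPM on a log axis with its own range per gene, by age (2M, 4M, 6M), with BALB/c in blue and NOD.H-2b in orange; points are mice and lines are group means of 3. Arntl did not overlap between strains at 2M (0.811 to 1.57 against 3.02 to 6.59 CPM), and the NOD.H-2b 4M mice spread widely in Per3 (6.65 to 28.5 CPM), Nr1d1 (2.62 to 29.2) and Dbp (0.821 to 8.06).

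Does the inflamed strain differ from BALB/c in its clock genes, and at which age? At 2M, 5 of the 10 genes passed an FDR of 0.05 in edgeR's quasi-likelihood test after Benjamini-Hochberg adjustment, against 39.8% of all 17200 genes tested. Arntl and Npas2 rose in NOD.H-2b, and Per3, Cry1 and Ciart fell. At 4M no member passed (42.6% of all genes did), with 1 at an unadjusted p under 0.05 and 1 by DESeq2, in both cases Per3. At 6M only Per1 passed, upward, against 54.4% of all genes. The share of clock genes called was thus near the background at 2M and under it at the later ages. With the study's added 2-fold threshold, 3 members were DEGs at 2M (15.8% of all genes), 0 at 4M (20.3%) and 0 at 6M (24.8%). The median absolute log2 fold change of the 10 genes was above that of all genes at 2M and 4M (0.72 against 0.27, and 0.65 against 0.36) and not at 6M (0.39 against 0.46). Most of the 10 also varied more between mice of 1 group than most genes did, as given below. The part of that spread in these medians was not tested. Single mice changed the later counts: without NOD.H-2b 4M replicate 1, 4 members passed at 4M (Clock, Cry1, Nr1d1 and Dbp), and without BALB/c 6M replicate 3, 5 passed at 6M (Arntl, Per1, Per2, Per3 and Nr1d1). Without NOD.H-2b 6M replicate 1 or replicate 2 the count at 6M was 2. The share of all genes called without each mouse is not given here, so these changes cannot be read as particular to the clock genes.

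Among the activators, Arntl (chr7:113207465-113314126, plus strand, GRCm38) differed most. In BALB/c at 2M its 3 mice had 1.57, 1.31 and 0.811 CPM, and the 3 NOD.H-2b mice had 6.59, 5.71 and 3.02 CPM. Every NOD.H-2b mouse lay above every BALB/c mouse. The difference was 2.10 ± 0.35 (SE) on the log2 scale, or 4.28-fold, with an adjusted p of 0.00217 by edgeR's quasi-likelihood test. At 4M the BALB/c mice had 4.53, 18.3 and 13.7 CPM and the NOD.H-2b mice 15.5, 21.3 and 29.4 CPM, and the ranges overlapped. At 6M the values were 2.67, 2.39 and 8.74 CPM in BALB/c and 8.63, 7.23 and 6.68 CPM in NOD.H-2b, so that BALB/c replicate 3 reached above all 3 NOD.H-2b mice while the other BALB/c mice lay below them. The log2 differences of 0.86 ± 0.58 and 0.77 ± 0.53 did not pass (adjusted p = 0.308 and 0.274). Without BALB/c 6M replicate 3 the difference at 6M was 1.59 and passed (adjusted p = 8.52e-05). The antisense gene Gm45355 shares 33 exon bases with Arntl and had at most 2 counts in a mouse.

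Npas2 (chr1:39193731-39363236, plus strand), the Clock paralog, was among the least abundant members, at 17 to 143 counts per mouse. At 2M it had 0.707, 0.431 and 0.476 CPM in BALB/c and 1.61, 1.03 and 0.754 CPM in NOD.H-2b, without overlap. It rose by 1.11 ± 0.34 on the log2 scale (adjusted p = 0.0222), but missed the threshold when BALB/c 2M replicate 2 (0.0835), replicate 3 (0.0714) or NOD.H-2b 2M replicate 1 (0.105) was left out. At 4M the difference was 0.47 ± 0.41 and at 6M -0.59 ± 0.35, and neither passed. Clock (chr5:76209868-76304792, minus strand) passed at no age with all mice. Its NOD.H-2b mice spread from 160 to 350 CPM at 2M, 149 to 352 at 4M and 91.9 to 268 at 6M, around BALB/c ranges of 168 to 190, 149 to 212 and 186 to 258 CPM.

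Among the repressors, Per3 (chr4:151003652-151044665, minus strand) was lower in NOD.H-2b at 2M. It had 87, 96 and 108 CPM in BALB/c and 43.2, 50.1 and 62.6 CPM in NOD.H-2b, without overlap, and fell by 0.86 ± 0.16 on the log2 scale (adjusted p = 0.00824). The call was lost without NOD.H-2b 2M replicate 2 (0.0563) and in a fit of all 18 mice (0.11). At 4M the BALB/c mice had 83.1, 42 and 57.1 CPM and the NOD.H-2b mice 28.5, 15.4 and 6.65 CPM. The groups did not overlap and the difference of -1.84 ± 0.62 was larger than at 2M, yet it missed the threshold (adjusted p = 0.0775), and passed in the fit of all 18 mice (0.00343). At 6M the NOD.H-2b mice were close together at 53.4, 53.8 and 58.6 CPM, and BALB/c replicate 3 (47.4) lay below them while the other BALB/c mice had 91.9 and 99 CPM.

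Cry1 (chr10:85131700-85185064, minus strand), the cryptochrome partner of the PER proteins, had at 2M 12.8, 15.2 and 12.7 CPM in BALB/c mice, and 7.79, 8.34 and 9.93 CPM in the NOD.H-2b mice. All NOD.H-2b mice were lower, and Cry1 fell by 0.60 ± 0.11 on the log2 scale (adjusted p = 0.0013). Its ranges overlapped at 4M and 6M, with differences of 0.29 ± 0.24 and -0.22 ± 0.20 that did not pass. Per1 (chr11:69095217-69109960, plus strand), which also responds directly to glucocorticoids and cAMP, was the only member called at 6M. It had 40.8, 39.5 and 47.8 CPM in BALB/c and 56.4, 50.8 and 62.6 CPM in NOD.H-2b, without overlap. It rose by 0.44 ± 0.10, or 1.36-fold (adjusted p = 0.00312), and missed the threshold in the fit of all 18 mice (0.0688). At 2M its difference had the other sign, -0.27 ± 0.10 (adjusted p = 0.0582). There it passed by DESeq2, with upper-quartile scaling, without a filter on low counts and with a block for replicate number (adjusted p = 0.00533 to 0.0438). Per2 (chr1:91415982-91459324, minus strand) passed at no age in edgeR's main fit. Its log2 differences there were -0.83 ± 0.37, -0.59 ± 0.49 and 0.34 ± 0.13 from 2M to 6M (adjusted p = 0.156, 0.401 and 0.0522). With a block for replicate number in edgeR it passed at all 3 ages (adjusted p = 0.00444, 0.024 and 0.0125). At 2M it passed without NOD.H-2b 2M replicate 3 (-1.26, adjusted p = 0.00522 by edgeR). At 6M it passed with DESeq2 size factors, DESeq2 and both other filters, at an adjusted p of 0.0159 to 0.05.

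Among the output genes and the second loop, Ciart (chr3:95878503-95882251, minus strand), a repressor of the Arntl and Clock pair, differed at 2M. It had 2.29, 2.64 and 4.48 CPM in BALB/c and 0.591, 1.26 and 1.08 CPM in NOD.H-2b, without overlap. It fell by 1.63 ± 0.33 on the log2 scale (adjusted p = 0.00373), a level 3.09-fold higher in BALB/c. At 4M the gene had only 4 to 56 counts per mouse, in a range of 0.0813 to 1.03 CPM in BALB/c and 0.232 to 0.59 CPM in NOD.H-2b, and its difference of -0.71 ± 0.76 did not pass. Nr1d1 (chr11:98767932-98775333, minus strand) and Dbp (chr7:45705088-45710203, plus strand) passed at no age in edgeR's main fit. With a block for replicate number in edgeR both passed at 2M, Nr1d1 at 0.589 (adjusted p = 0.00143) and Dbp at -0.316 (adjusted p = 0.00333). At 2M Nr1d1 had 32.7, 38.1 and 52.9 CPM in BALB/c and 57.9, 54.2 and 65.8 CPM in NOD.H-2b, and the difference of 0.57 ± 0.20 missed the threshold although the groups did not overlap (adjusted p = 0.0785). It passed by DESeq2 (0.0355) and without BALB/c 2M replicate 3 (0.78, adjusted p = 0.000589). At 4M it had 36, 31.1 and 39.5 CPM against 29.2, 8.68 and 2.62 CPM. All 3 NOD.H-2b values lay below BALB/c, but they differed among themselves by more than 10-fold. Dbp at 4M had 19.7, 8.65 and 11.1 CPM in BALB/c and 8.06, 2.32 and 0.821 CPM in NOD.H-2b, again without overlap and with a wide spread (-1.79 ± 0.90, adjusted p = 0.189). Nr1d1 shares 263 exon bases (8.55%) with Thra and Dbp 539 (18%) with Sphk2, both on the opposite strand. The strand setting of the counting is not given in the sources used here, so some reads of each pair could have been left out or assigned to the partner.

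**Figure D2:**
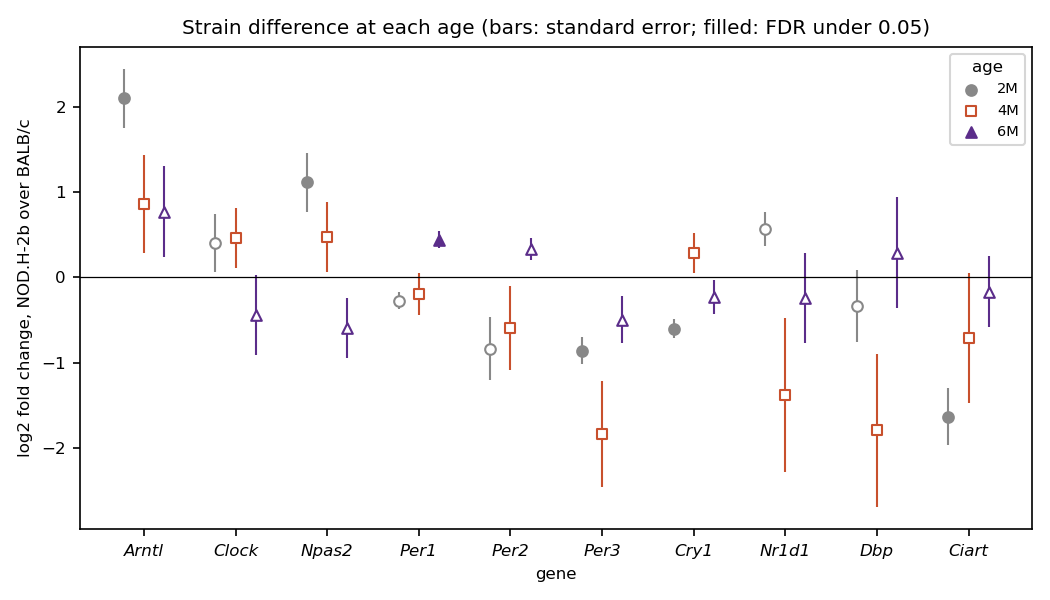
Log2 fold change of NOD.H-2b over BALB/c for each clock gene at 2M (grey circles), 4M (orange squares) and 6M (purple triangles), with bars of 1 standard error; filled symbols passed an FDR of 0.05. All filled symbols are at 2M (Arntl, Npas2, Per3, Cry1 and Ciart) except Per1 at 6M, and the widest bars are at 4M for Nr1d1 and Dbp.

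Averaged over the 3 ages in 1 fit of all 18 mice, 3 members passed, against 65.5% of all 19117 genes. Arntl rose by 1.22 ± 0.33 on the log2 scale (adjusted p = 0.0055), Per3 fell by 1.09 ± 0.24 (adjusted p = 0.00141) and Ciart fell by 0.86 ± 0.35 (adjusted p = 0.0427). Arntl was higher and Per3 lower in NOD.H-2b as group means at each of the 3 ages. Without the 4M mice, in whom the spread was widest, Arntl gave 1.42, Per3 -0.69 and Ciart -0.91, all past the threshold, and Cry1 passed as well (-0.42, adjusted p = 0.013). Without NOD.H-2b 4M replicate 1, 6 members passed, with no share of all genes given for that fit. The Ciart call was lost in 13 of the 18 omissions of 1 mouse (adjusted p = 0.0551 to 0.133), with DESeq2 size factors (0.0525) and without a filter on low counts (0.0991). It was also lost with at least 10 counts in every sample and with a block for replicate number. The change of the strain difference with age was tested directly. From 2M to 4M, 0 members passed in edgeR (1.67% of all genes), with 1 at an unadjusted p under 0.05 and 1 by DESeq2, Cry1. From 2M to 6M, 0 passed (16.1% of all genes), with 3 at an unadjusted p under 0.05 and 2 by DESeq2, Npas2 and Per1. Npas2 came nearest (-1.70 ± 0.58, adjusted p = 0.0518) and passed without BALB/c 2M replicate 1 (0.0451), NOD.H-2b 2M replicate 3 (0.043) or NOD.H-2b 6M replicate 3 (0.0423). A strain difference called at 2M and not later was therefore not shown to differ between ages.

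How did the genes move with age within a strain? The comparisons within a strain share mice, so they are given side by side. From 2M to 4M the group mean of Arntl went from 1.23 ± 0.38 to 12.2 ± 7.02 CPM in BALB/c and from 5.11 ± 1.86 to 22.1 ± 6.99 CPM in NOD.H-2b (SD, n = 3). All 4M mice of a strain lay above all its 2M mice. In NOD.H-2b Arntl rose by 2.11 ± 0.37 on the log2 scale (adjusted p = 0.0233) and was the only member of 10 to pass, against 15.8% of all genes. The larger change in BALB/c, 3.31 ± 0.70, missed the threshold (adjusted p = 0.0606), with 4.53 CPM in replicate 1 and 18.3 and 13.7 CPM in the other two, and passed without BALB/c 4M replicate 1 (3.70, adjusted p = 0.000209). In BALB/c the 2 members that passed (11.1% of all genes did) were Npas2, which rose by 1.60 ± 0.43 (adjusted p = 0.0381), and Cry1, which fell by 0.52 ± 0.10 (adjusted p = 0.00729). Leaving out BALB/c 4M replicate 1 brought the count to 4, and leaving out any BALB/c 2M mouse or BALB/c 4M replicate 3 to 1, Cry1. The Npas2 call held in 1 of these 6 omissions, that of BALB/c 4M replicate 1, and was lost in the other 5 (adjusted p = 0.067 to 0.151), including that of BALB/c 4M replicate 2 (1.17, adjusted p = 0.0942). It was also lost with a block for replicate number. In NOD.H-2b the count was 4 without NOD.H-2b 4M replicate 1, 2 without NOD.H-2b 2M replicate 1, and 0 without NOD.H-2b 2M replicate 2 or NOD.H-2b 4M replicate 2, where Arntl missed the threshold (adjusted p = 0.0548 and 0.059). Without a filter on low counts Arntl missed it too (0.0633), and Npas2 and Ciart passed instead. With a block for replicate number Arntl missed it and no member passed.

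Dbp moved the other way without passing. Its mean went from 43.1 ± 17.8 to 13.2 ± 5.77 CPM in BALB/c and from 33.1 ± 11.5 to 3.73 ± 3.82 CPM in NOD.H-2b. The log2 changes were -1.71 ± 0.48 and -3.12 ± 0.84 (adjusted p = 0.114 and 0.0677). No 4M mouse of either strain reached the lowest 2M mouse of that strain. Per2 had the same arrangement, 32.2 to 48.2 against 7.09 to 18.9 CPM in BALB/c and 15.8 to 32.9 against 5.99 to 13.7 CPM in NOD.H-2b, with adjusted p of 0.103 and 0.132. In a fit of all 18 mice 5 members passed from 2M to 4M in NOD.H-2b (Arntl, Per2, Per3, Nr1d1 and Dbp) and 4 in BALB/c (Arntl, Npas2, Per2 and Ciart). The share of all genes called in that fit is not given here, and the shares above belong to the fits of 6 mice.

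From 4M to 6M no member passed in either strain. In BALB/c 0.307% of all genes were called and 1 member, Npas2, had an unadjusted p under 0.05, with 0 by DESeq2. In NOD.H-2b 0.00555% of all genes were called by edgeR's FDR (1 of 18026). Of the 10 members, 7 had an unadjusted p under 0.05 in edgeR and 5 passed in DESeq2 (Arntl, Npas2, Per1, Per2 and Ciart). No share of all genes at an unadjusted p or in DESeq2 is given here, so neither count can be set against a background. Npas2 had 1.8, 2.12 and 2.86 CPM at 4M and 0.366, 0.297 and 0.578 CPM at 6M, and gave -2.44 ± 0.31 with an adjusted p of 0.0839 in edgeR. The lowest 4M mouse was more than 3-fold above the highest 6M mouse. Without NOD.H-2b 4M replicate 1, 6 members passed there (Arntl, Npas2, Per1, Per2, Dbp and Ciart), again with no share of all genes given.

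From 2M to 6M no BALB/c member passed (5.61% of all genes did), with 4 at an unadjusted p under 0.05 and 2 by DESeq2, Per1 and Per2. Without BALB/c 6M replicate 3 the count was 3 (Arntl, Clock and Per1) and without BALB/c 2M replicate 1 it was 1 (Per2). In NOD.H-2b 3 members passed, against 40% of all genes. Npas2 fell by 1.47 ± 0.36 on the log2 scale (adjusted p = 0.0122) and Nr1d1 fell by 1.06 ± 0.08 (adjusted p = 0.000287), from 57.9, 54.2 and 65.8 CPM to 29.1, 29.1 and 28.2 CPM. The 6M mice were almost identical in Nr1d1 and all lay below the 2M mice. Per1 rose by 0.30 ± 0.09 (adjusted p = 0.0337), a call lost without NOD.H-2b 2M replicate 1 or 3 or NOD.H-2b 6M replicate 1 or 3 (adjusted p = 0.0631 to 0.134). The Per1 and Nr1d1 calls were also lost in the fit of all 18 mice (0.185 and 0.199). With a block for replicate number the Per1 call was lost as well. From 2M to 4M, 1 member was a DEG in each strain, where 2.37% (BALB/c) and 6.6% (NOD.H-2b) of all genes were.

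Pooled over the 6 groups, most clock genes differed between mice of 1 strain and age far more than most genes did. The within-group SD of log2(CPM + 0.1) was 0.942 for Dbp, 0.842 for Nr1d1, 0.794 for Ciart and 0.698 for Arntl, against a median of 0.206 over all 19117 genes tested. Dbp exceeded 99.4% of those genes, Nr1d1 99.1%, Ciart 98.9% and Arntl 98.3%. Per3 (0.544), Clock (0.511), Per2 (0.488) and Npas2 (0.484) exceeded 90% to 94.2%. Per1 (0.239, above 55.7%) and Cry1 (0.301, above 64.7%) lay closest to the median. Among genes of a like level, the 10 shares ran from 85.7% for Npas2 to 99.8% for Dbp, with Per1 at 95.6% and Cry1 at 90.9%. The spread was unequal between groups. Nr1d1 had 13.5 ± 13.9 CPM (SD, n = 3) in NOD.H-2b at 4M and 34.7 ± 20.3 in BALB/c at 6M. The latter includes BALB/c 6M replicate 3 at 12.9 CPM. In NOD.H-2b at 6M it had 28.8 ± 0.518 CPM, and in the other groups its SD was 4.22 to 10.5 CPM. At 4M the strain differences of Per3, Nr1d1 and Dbp, -1.84, -1.38 and -1.79 on the log2 scale, had standard errors of 0.62, 0.90 and 0.90 and did not pass.

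**Figure D3:**
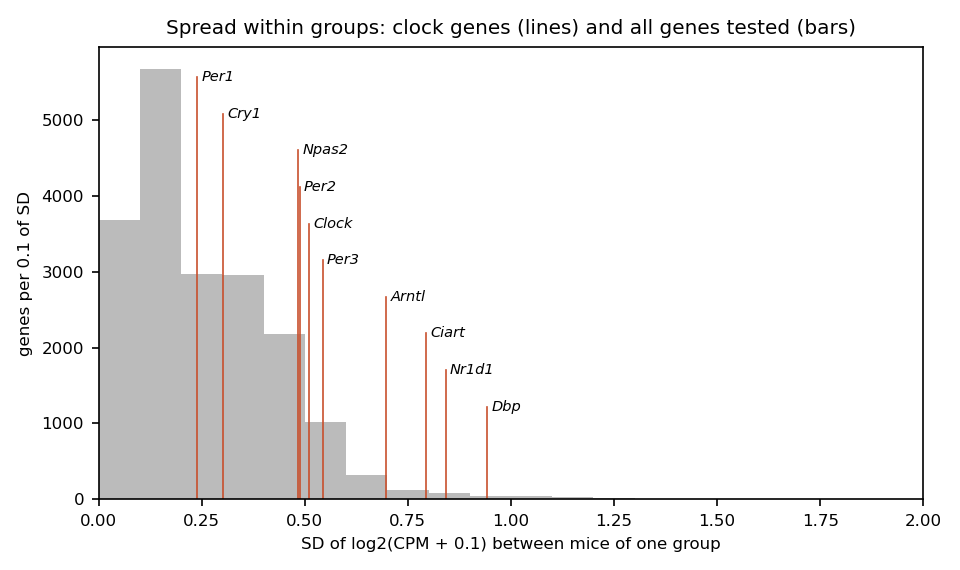
Number of genes (bars, per 0.1 of SD) by their standard deviation of log2(CPM + 0.1) between mice of the same group, over all genes tested and cut at 2, with each clock gene as an orange line whose height carries no value. Per1 and Cry1 lie within the bulk, and Arntl, Ciart, Nr1d1 and Dbp (0.698 to 0.942) in its far tail. Among genes of a like level, Per1 and Cry1 exceeded 95.6% and 90.9%.

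Did the genes vary together from mouse to mouse? With the group means subtracted, Pearson's r over the 18 mice was computed for all 45 pairs, with a two-sided exact permutation test of mice within their groups (46656 arrangements, smallest p 2.14e-05) and Benjamini-Hochberg adjustment over the 45. In all, 14 pairs passed, 7 of them positive and 7 negative, all among Arntl, Npas2, Per3, Nr1d1, Dbp and Ciart. The positive pairs were Arntl with Npas2 and the 6 pairs among Per3, Nr1d1, Dbp and Ciart. The negative pairs joined Arntl or Npas2 to those 4, except that Npas2 and Ciart missed the threshold (r = -0.713, adjusted exact permutation p = 0.0574). By Pearson's r, no pair with Clock, Per1, Per2 or Cry1 passed. By Spearman's rho 17 pairs passed, these 14 and 3 more: Npas2 with Ciart (rho = -0.662, adjusted exact permutation p = 0.0351), Clock with Per2 (-0.635, 0.0351) and Per1 with Per2 (0.742, 0.0232). Cry1 and Nr1d1 had r = -0.842 but an exact permutation p of 0.027 (adjusted 0.0711), with rho = -0.531, and Per1 and Per2 had r = 0.723 (exact permutation p = 0.0224, adjusted 0.0629).

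The relation of Arntl to Dbp had r = -0.83 (exact permutation p = 0.0003, adjusted 0.0045) and Spearman's rho = -0.893. Without BALB/c 4M replicate 1 and BALB/c 6M replicate 3, the mice farthest from the median of Arntl, r was -0.806. Within BALB/c it was -0.929 (exact permutation p = 0.00463, the smallest that 216 arrangements allow) and within NOD.H-2b -0.779 (exact permutation p = 0.0278). Arntl and Per3 gave r = -0.791 (exact permutation p = 2.14e-05, adjusted 0.000965, rho = -0.915, without the 2 farthest mice -0.751), with -0.974 within BALB/c and -0.774 within NOD.H-2b. Per3 and Dbp gave r = 0.954 (exact permutation p = 8.57e-05, adjusted 0.00193), with 0.945 within BALB/c and 0.979 within NOD.H-2b. Fewer pairs passed without the 4M mice, where the smallest exact permutation p is 0.000772. A lone pair can pass the adjustment there only at that p. Over the other 12 mice and 1296 arrangements, only Arntl and Per3 still passed (r = -0.978, adjusted exact permutation p = 0.0347), while the r of Arntl with Dbp was -0.962 (exact permutation p = 0.0108, adjusted 0.0744). With BALB/c 6M replicate 3 left out as well, that r was -0.906. The mice of 1 strain alone (9 each) gave 6 passing pairs for BALB/c and 0 for NOD.H-2b (13 and 7 at an unadjusted exact permutation p under 0.05), where even an r of 0.973, that of Per3 with Nr1d1, had an exact permutation p of 0.0833. In 1 strain a lone pair cannot pass even at the smallest exact permutation p of 0.00463. These counts therefore cannot show that the relations differ between strains. Nor can the count without the 4M mice show weaker relations.

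**Figure D4:**
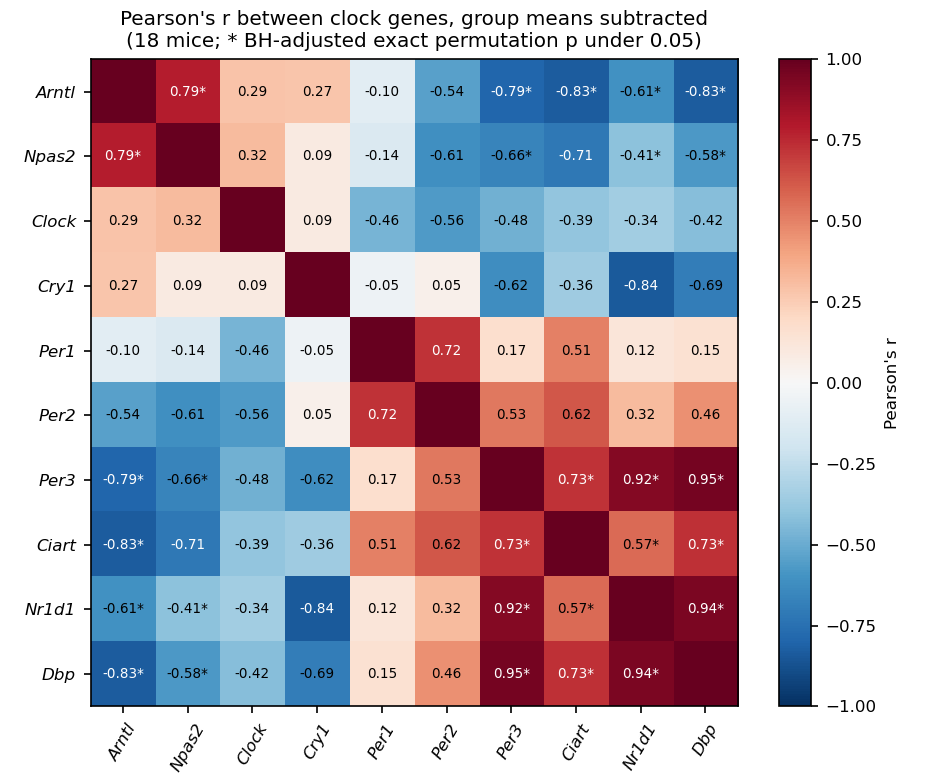
Pearson's r between each pair of clock genes over 18 mice after the mean of each group was subtracted, coloured from -1 (blue) to 1 (red), with an asterisk where the Benjamini-Hochberg adjusted exact permutation p was under 0.05. Per3, Ciart, Nr1d1 and Dbp form a positive block and Arntl and Npas2 are negative to it, whereas the rows of Clock, Cry1, Per1 and Per2 carry no asterisk.

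The ratio of Arntl to Dbp counts within a mouse needs no normalization and shows the same contrast mouse by mouse. In BALB/c at 2M log2(Arntl/Dbp) was -4.28, -4.75 and -6.29, the last from 46 Arntl and 3601 Dbp counts. In NOD.H-2b at 2M it was -2.01, -2.21 and -3.94. At 4M it was -2.12, 1.08 and 0.30 in BALB/c and 0.94, 3.20 and 5.16 in NOD.H-2b, where replicate 3 had 1469 Arntl and 41 Dbp counts. Thus 5 of the 6 mice at 4M, and 1 at any other age, had more counts of Arntl than of Dbp. That other mouse was BALB/c 6M replicate 3 at 0.67, against -3.32 and -3.74 in its group mates. The NOD.H-2b 6M mice lay together at -1.65, -1.63 and -2.05. The 3 values of NOD.H-2b 4M spanned more than 4 log2 units, and those of NOD.H-2b 6M less than 1.

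**Figure D5:**
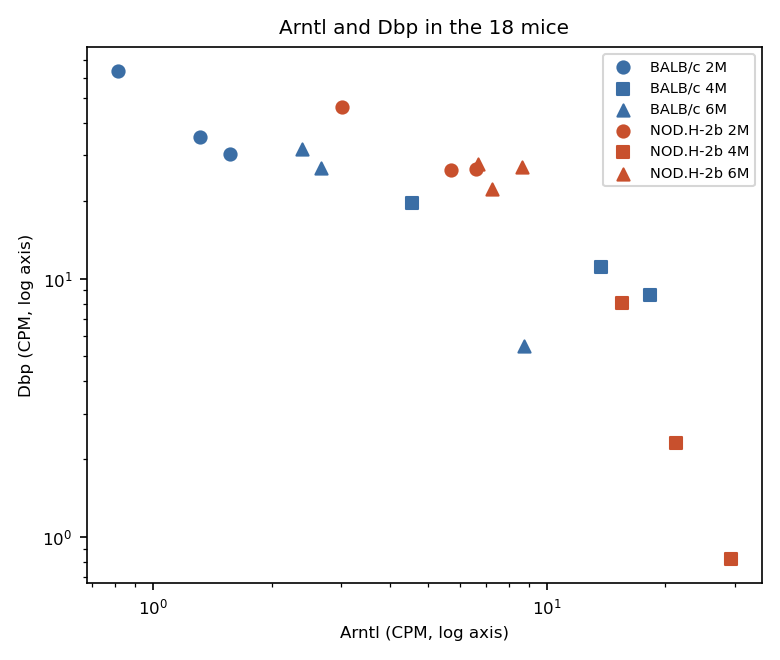
Arntl (horizontal) against Dbp (vertical) in the 18 mice, both in CPM on log axes, with BALB/c in blue, NOD.H-2b in orange, and circles, squares and triangles for 2M, 4M and 6M. The mice run along a descending band from BALB/c 2M replicate 3 (0.811 and 63.5 CPM) to NOD.H-2b 4M replicate 3 (29.4 and 0.821 CPM), with BALB/c 6M replicate 3 (8.74 and 5.49 CPM) apart from its group mates.

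Further genes of the pathway were counted from fixed lists. Of 12 other clock genes, 2 rose and 7 fell in NOD.H-2b averaged over ages, and their median log2 difference was -0.44 (-0.02 over all genes tested). In that comparison 65.5% of all 19117 genes were called, 6206 upward and 6321 downward. Timeless, which is also a replication fork gene of dividing cells, rose by 2.00 ± 0.14, from group means of 0.614 to 0.801 CPM in BALB/c to 2.05 to 3.51 CPM in NOD.H-2b. Arntl2, the paralog of Arntl, fell by 1.24 ± 0.12, and the DBP relatives Tef and Hlf fell by 1.02 ± 0.15 and 0.86 ± 0.16, with adjusted p of 0.000126 or less for all 4. Hlf was lower in NOD.H-2b as a group mean at 2M and 4M but not at 6M (3.72 against 3.17 CPM), and its strain difference rose from 2M to 6M by 1.39 ± 0.39 (adjusted p = 0.0231). At 2M Tef had 183 to 216 CPM in BALB/c against 101 to 121 CPM for NOD.H-2b, and 102 to 191 against 85.6 to 94.8 CPM at 6M. The strains did not overlap at any age in Tef. Of 13 genes for kinases, ubiquitin ligases and other modifiers of clock proteins, 2 rose and 7 fell (median -0.14), among them Usp2 (-0.79 ± 0.10), Csnk2a1 (-0.60 ± 0.03), Csnk1a1 (-0.36 ± 0.04) and Csnk1e (0.39 ± 0.05). Of 9 genes known as rhythmic outputs in many tissues, 0 rose and 7 fell (median -0.70), including the mitotic kinase gene Wee1 (-0.86 ± 0.07). This list of outputs shares Tef, Hlf and Nr1d2 with the first and Usp2 with the second.

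Lists of signals that can reset the clock gave mixed counts. Of 9 glucocorticoid response genes, 2 rose and 4 fell (median -0.04). They include Per1 itself and Tsc22d3, which is also on the list of rhythmic outputs. The metallothionein gene Mt2 rose by 2.99 ± 0.18, from at most 1.85 CPM in any BALB/c mouse to at least 4.8 in any NOD.H-2b mouse, whereas Zbtb16 fell by 1.09 ± 0.11, Fkbp5 by 0.76 ± 0.13 and Tsc22d3 by 0.41 ± 0.11. Of 7 temperature response genes, 0 rose and 1 fell, the cold-inducible RNA-binding protein gene Cirbp (-0.49 ± 0.20, adjusted p = 0.0418), in which BALB/c 6M replicate 3 stood apart as given above. Of all genes, 65.5% were called in this comparison, 6206 upward and 6321 downward. The temperature list, with 1 of 7, lay under that share. No list was tested against it.

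Outside the 10 genes, those most like Arntl in their mouse-to-mouse deviations from the group mean, among 10058 genes over 18 mice, were Hps4 (r = 0.918), Nfil3 (0.89), Atp6v1a (0.835), Gusb (0.833) and Dapk1 (0.833). Those most like Dbp were Nr1d2 (0.962), Tef (0.925), Bhlhe41 (0.92), Tardbp (0.874) and Fam46b (0.871). These r are descriptions without a test, and all rest on the same libraries. Nfil3 encodes a repressor acting on D-boxes, Nr1d2 the paralog of NR1D1, and Bhlhe41 (DEC2) a repressor at E-boxes, and these 3 and Tef were on the list of other clock genes. Nr1d2 followed the pattern of Dbp in level too, its NOD.H-2b mice having 89.8 to 102 CPM at 2M, 16.8 to 55.7 at 4M and 75.7 to 80.5 at 6M. Its BALB/c ranges were 94.8 to 128, 60.2 to 92.2 and 60.9 to 108 CPM. Nfil3 had 6.74 to 10.2, 11.2 to 22.5 and 6.19 to 7.46 CPM in NOD.H-2b, highest at 4M as Arntl was. In BALB/c it had 3.97 to 5.89, 5.73 to 13.4 and 3.77 to 12.3 CPM, and the 4M range overlapped those of 2M and 6M.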

How the data were processed

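Total LG RNA of 18 mice was sequenced after depletion of ribosomal RNA. Per the labels and the study's methods, the authors trimmed reads with cutadapt, checked them with FastQC, mapped them with STAR (build GRCm38) and summed them over genes with HTSeq. The deposited raw counts were used; a second deposited table of normalized counts was not used. Groups came from the sample titles. Genes without a group-wise minimum were dropped (filterByExpr), libraries were scaled by TMM, and edgeR 4.0.16 (R 4.3.3) gave robust quasi-likelihood tests with Benjamini-Hochberg adjustment over all genes tested. Each strain or age comparison was fitted on its 6 mice, and the averaged difference and strain by age on 18. A gene rose or fell at an FDR under 0.05, and was a DEG when also changed at least 2-fold. Standard errors are the log2 fold change over the root of F. CPM used TMM; correlations used log2(CPM + 0.1), and exon lengths came from GENCODE M21. The scripts were tested on simulated data.

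The members and lists were chosen with earlier results of these data known. Named were all 10 members, in each of 5 pathway lists up to 4 genes with the largest averaged strain difference past the FDR, and the 5 genes most like Arntl and like Dbp (average log2 CPM not under 2). In the marker lists, averaged over ages, all 7 B cell, 8 T cell and 8 macrophage genes rose (1 further B cell marker is not reported here); 3 of 6 plasma cell genes rose and 2 fell; 1 of 12 epithelial genes rose and 8 fell; 1 adipocyte gene rose of 5 tested; 2 muscle genes rose and 1 fell of 3 tested; 1 salivary gene fell of 2 tested. Depth was 49480781 to 103936830 counts per mouse, so the lowest values (4 counts for Ciart in 1 mouse) carry large counting error. The labels give no batch. No pair of replicates was close enough to be 1 library deposited in duplicate. Alternatives tried were DESeq2 1.42.0, DESeq2 size factors, upper-quartile scaling, no filter or at least 10 counts in every sample, a block for replicate number, 1 fit of all mice, a pseudocount of 1, Spearman's rho, each strain alone, and leaving out each mouse. Leaving out all 4M mice was added after the data were seen. The p-values of group differences set a difference against the spread between mice. Those of correlations give the share of rearrangements of mice within groups with an r at least as strong.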

Additional observations from a re-analysis of the deposited data

Results flagged for a closer look

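In Npas2 and Dbp the strain difference had opposite signs at 4M and 6M in every NOD.H-2b mouse relative to the BALB/c mean of that age, and the change from 4M to 6M was not tested. Npas2 differed by 0.47 ± 0.41 on the log2 scale at 4M and by -0.59 ± 0.35 at 6M, and Dbp by -1.79 ± 0.90 and 0.29 ± 0.65. The Dbp value at 6M rests on BALB/c replicate 3. The BALB/c mice had 26.8, 31.8 and 5.49 CPM and the NOD.H-2b mice 27, 22.3 and 27.7 CPM, and without that replicate the BALB/c mean was 29.3 CPM, above all 3 NOD.H-2b mice. None of these 4 differences passed the FDR in edgeR (adjusted p = 0.399, 0.179, 0.189 and 0.737).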

How the results depend on the processing

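No called gene difference reversed. Of 15 called differences, 6 kept their side of the threshold under every alternative run: Arntl, Cry1 and Ciart at 2M, Arntl and Per3 averaged over ages, and Npas2 from 2M to 6M in NOD.H-2b. Of the 230 values of called genes under an alternative, 190 kept the call and 40 lost it. The cause of each change below was not tested. The share of all genes is not given here for any alternative or for an unadjusted p. Counts of members under them therefore have no background beside them.

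DESeq2 gave 7 at 2M, with Per1 and Nr1d1 added. It gave 1 at 4M, 2 at 6M, 5 for BALB/c 4M against 2M, 2 for BALB/c 6M against 2M, 6 for NOD.H-2b 4M against 2M, 5 for NOD.H-2b 6M against 4M, and 1 and 2 for strain by age. In 1 fit of all mice the counts were 1 at 4M, 0 at 6M, 4 for BALB/c 4M against 2M, and 5, 3 and 1 for NOD.H-2b 4M against 2M, 6M against 4M and 6M against 2M. With DESeq2 size factors the count at 6M was 2. Upper-quartile scaling gave 1 for BALB/c 6M against 2M, 2 for NOD.H-2b 4M against 2M and 1 for strain by age to 6M. Without a filter the counts were 2 at 6M, 1 and 2 for BALB/c 6M against 4M and against 2M, and 2 and 2 for NOD.H-2b 4M against 2M and 6M against 4M. With at least 10 counts in every sample they were 2 at 6M, 1 for BALB/c 6M against 2M and 1 for strain by age to 6M.

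Replicate numbers are shared by all groups. Between samples of the same number, 45 correlations of deviations ran from -0.339 to 0.344. In 0 of 15 pairs of groups were all above 0.1. These were not taken over the clock genes alone, so they cannot show whether same-number mice are related in those genes. In log2(Arntl/Dbp), replicate 3 was lowest in both strains at 2M (-6.29 and -3.94), and replicate 1 at 4M (-2.12 and 0.94). At 6M replicate 3 was highest in BALB/c (0.67) and lowest in NOD.H-2b (-2.05). Whether mice with the same number share anything more was not tested. With the replicate block the counts were 9 at 2M, 1 at 4M, 2 at 6M, 3 for BALB/c 6M against 2M, 0 and 3 for NOD.H-2b 4M against 2M and 6M against 4M, and 1 for strain by age to 6M; 20 pairs of genes were correlated under the block.

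Leaving out each mouse moved the counts from 4 to 6 at 2M, 0 to 4 at 4M, 1 to 5 at 6M, 1 to 4, 0 to 0 and 0 to 3 for BALB/c 4M against 2M, 6M against 4M and 6M against 2M, 0 to 4, 0 to 6 and 2 to 3 for the same in NOD.H-2b, 2 to 6 averaged over ages, 0 to 0 and 0 to 1 for strain by age, and 11 to 16 for correlated pairs. Correlated pairs numbered 6 in BALB/c alone, 0 in NOD.H-2b alone and 1 without the 4M mice, counts that the fewer arrangements limit as given above. By Spearman's rho they numbered 17 and with a pseudocount of 1 they numbered 15. The number of mice, 3 a group, limits the precision of every count here.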

Other observations

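The genes most like Clock in their deviations from the group mean were looked up after its values were seen. Among 10058 genes over 18 mice these were Pdhx (r = 0.964), Ninj1 (0.963), Trappc10 (0.94), Tox3 (0.937) and Mospd2 (0.937), none of them on the clock lists, and the r of Clock with Arntl was 0.287. At the other end, also looked up afterwards, the lowest r with Arntl among these 10058 genes was that of Cpt1a (-0.943). Cpt1a encodes the carnitine palmitoyltransferase that brings fatty acids into mitochondria. Bhlhe41 (-0.892), Ncoa3 (-0.862), Tbc1d30 (-0.853) and Tef (-0.844) came next, and none of these r was tested.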
